A study of Homo sapiens with 12 samples.

Results

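A set of 10 keratin genes that mark luminal or basal epithelium was followed in VCaP-T and VCaP-CT prostate cancer cells: KRT8, KRT18, KRT19 and KRT7 as luminal keratins, KRT5, KRT14 and KRT15 as basal keratins, and KRT20, KRT23 and KRT80 as keratins of other epithelia. They were taken by symbol from a list of keratins, with no threshold on their values, and each symbol was matched to 1 Ensembl identifier, giving 10 of the 58381 genes in the count files. KRT8, KRT18, KRT19, KRT14, KRT15 and KRT80 passed the filter on low counts and were tested among 19162 genes. KRT5, KRT7, KRT20 and KRT23 did not pass it and are described by their counts.

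Keratins build the intermediate filaments of epithelial cells as pairs, each of a type I and a type II protein. In the prostate, secretory luminal cells are known for the pair KRT8 and KRT18, and basal cells, which sit on the basement membrane, for KRT5 with KRT14 and for KRT15. KRT19 lacks most of the tail domain of other keratins and is found in luminal and intermediate cells, and prostate adenocarcinoma is usually described as luminal, with basal keratins low or absent.

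VCaP is an established cell line from a vertebral metastasis of prostate cancer. All groups came from that line and grew in RPMI 1640 with charcoal-stripped serum, L-glutamine and antibiotics, so testosterone (T) was set by what was added. VCaP-T was grown for months with 10 nM T, and VCaP-CT was grown from VCaP-T for months at 0.1 nM T. The groups, with 3 libraries each, were VCaP-CT at 10 nM T for 48 h (rechallenged VCaP-CT), VCaP-CT at 0.1 nM T (steady VCaP-CT), VCaP-T at 0.1 nM T for 48 h (depleted VCaP-T) and VCaP-T at 10 nM T (steady VCaP-T). VCaP-CT was at passage 73 and VCaP-T at passage 84, and each line is a single subclone, so that a difference between lines cannot be told apart from a difference between these particular cultures. The labels do not say that the replicates were separate cultures, so a p-value here reflects the variation among libraries of a group, which may be technical.

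The 12 libraries held 30.2 to 40.8 M fragments counted in genes. Replicate 2 of depleted VCaP-T stood apart: the lowest correlation within its group across genes was 0.9621, on log2(normalized count + 1), against at least 0.9917 in the other groups. It was also the highest library of all 12 for KRT8, KRT18 and KRT19, and the depletion values of the members are given with and without it. The other genes named as called on depletion stayed called without it. Markers other than keratins were mixed. HOXB13, a prostate homeobox factor, averaged 12577 to 15135 normalized counts over the 4 groups, and the epithelial adhesion molecule EPCAM 9049.5 to 16455, but luminal GATA3 had at most 16 counts in any library and CD38 at most 10. TP63, the defining factor of basal cells, had at most 11 counts in any library, while ITGA6, a basal integrin, averaged 4136 to 6711 normalized counts, DSC3 2111 to 4312 and EGFR 1413 to 3762. The blood cell marker PTPRC had at most 1 count.

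The type II genes KRT80, KRT7, KRT5 and KRT8 lie in the keratin cluster of chromosome 12 together with the type I gene KRT18, and the other type I genes lie in the cluster of chromosome 17 (GRCh38, gene models of Gencode 28). KRT8 (ENSG00000170421.12, 52897187 to 52949954, minus strand) and KRT18 (ENSG00000111057.10, 52948871 to 52952901, plus strand) overlap by 1084 bases. Because counting did not use the strand, reads of that stretch cannot be assigned to 1 of them. The overlap covers 7.63% of the KRT8 exon length and 16.3% of that of KRT18. KRT15 (ENSG00000171346.15, 41513743 to 41522529) and KRT19 (ENSG00000171345.13, 41523617 to 41528308) are neighbours on the minus strand of chromosome 17, 1087 bases apart, and KRT14 (ENSG00000186847.5, 41582279 to 41586921) lies a further 53970 bases on. KRT80 (ENSG00000167767.13, 52168996 to 52192000, minus strand) and KRT5 (ENSG00000186081.11, 52514575 to 52520687, minus strand) are on chromosome 12, and KRT7 (ENSG00000135480.15, 52232520 to 52252186) is on its plus strand. KRT20 (ENSG00000171431.3, 40875941 to 40885227) and KRT23 (ENSG00000108244.16, 40922696 to 40937634) are on the minus strand of chromosome 17.

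Promoter windows, 250 bases before to 50 after a start site, were on hand in a RefSeq table (GRCh38.p14) for KRT5, KRT8 and KRT20. Those of KRT5 and KRT20 are shown because both genes had at most 2 counts in each of the 12 libraries, one of them being the basal partner of KRT14. The KRT5 window is chr12:52520345-52520644 and the KRT20 window chr17:40885193-40885492, both on the minus strand and written 5′ to 3′. The capital marks the start site.
KRT5: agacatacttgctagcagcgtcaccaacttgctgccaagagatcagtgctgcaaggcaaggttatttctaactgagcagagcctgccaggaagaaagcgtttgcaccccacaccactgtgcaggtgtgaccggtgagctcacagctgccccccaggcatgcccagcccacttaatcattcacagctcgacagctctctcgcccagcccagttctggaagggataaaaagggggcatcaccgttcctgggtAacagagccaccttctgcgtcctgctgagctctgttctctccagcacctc
KRT20: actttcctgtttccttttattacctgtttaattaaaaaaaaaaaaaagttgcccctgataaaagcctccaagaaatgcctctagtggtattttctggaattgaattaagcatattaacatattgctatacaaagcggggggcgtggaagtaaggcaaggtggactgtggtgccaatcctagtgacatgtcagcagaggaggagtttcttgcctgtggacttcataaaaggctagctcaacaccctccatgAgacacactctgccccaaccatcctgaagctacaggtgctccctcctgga
The motifs searched on both strands were the AP-1 site TGANTCA, the TATA box TATAAA and the GC box GGGCGG. Neither window held an exact match. Near matches were not searched, so the windows are not shown to lack such elements. Of 35116 windows of the same length, 7.71% hold the AP-1 site, 11.5% the TATA box and 45.0% the GC box. The start site of the KRT8 window lies 21393 bases upstream of the canonical start of that gene in Ensembl. That window holds none of the motifs and is not shown.

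Levels of different genes were compared as FPKM, fragments per kb of exon scaled to the TMM library size. Exon lengths were taken over all isoforms, 6881 bases for KRT8 and 3218 for KRT18, and the order of genes depends on them. By FPKM KRT18 was the highest member in every library, between 74.5 and 192, and KRT8 came next in every library, between 44.5 and 113. By raw counts KRT8 was above KRT18 in every library. In FPKM these 2 were ahead of all other members. KRT19 followed, at 30.2 to 55.7 in VCaP-T libraries at either dose and 4.79 to 6.86 in VCaP-CT libraries. A wide gap separated these luminal keratins from the basal ones. KRT14, the type I keratin of basal cells, had 0.601 to 2.48 over the 12 libraries. KRT15 had 1.02 to 1.14 in steady VCaP-T and at most 0.186 in any other library. KRT80, a type II keratin of epithelial cell junctions, averaged 0.0947 in rechallenged VCaP-CT, 0.226 in steady VCaP-CT, 0.324 in depleted VCaP-T and 0.120 in steady VCaP-T, below KRT14 in every group. The order within KRT15 and KRT80 differed between groups, since KRT15 stood above KRT80 in steady VCaP-T only.

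The basal type II keratin KRT5, partner of KRT14, had 0, 2 and 1 counts in rechallenged VCaP-CT, 0, 0 and 2 in steady VCaP-CT, 1, 0 and 0 in depleted VCaP-T and 0 in each library of steady VCaP-T. KRT7, a type II keratin of ducts and glands, had 1 count in 1 library of steady VCaP-CT, 1 and 2 counts in 2 libraries of steady VCaP-T, and 0 elsewhere. KRT20, of intestinal and urothelial cells, and the type I keratin KRT23 had 0 counts in all 12 libraries, which allows up to 3 fragments in a library of 30.2 to 40.8 M. At this depth no difference between groups was detectable for these 4 genes. KRT14 RNA was thus read without more than 2 fragments of KRT5 in any library, and KRT8 was the only type II member with a high level.

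The comparisons were depletion (depleted VCaP-T against steady VCaP-T), rechallenge (rechallenged VCaP-CT against steady VCaP-CT), the lines as maintained (steady VCaP-CT against steady VCaP-T), and the lines at a like dose, both at 0.1 nM and both at 10 nM T. A further comparison, the difference in response, asked whether the response to 10 over 0.1 nM T was the same in VCaP-CT as in VCaP-T. A gene was called at the thresholds of the study: a Benjamini-Hochberg adjusted p under 0.01 (edgeR's quasi-likelihood test), a fold of more than 1 in size on the log2 scale and medians more than 13 normalized counts apart. The medians were not used where responses were compared. Normalized counts are fragment counts scaled by TMM to the mean library.

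On depletion 3 of the 6 tested members were called, KRT14 and KRT15 lower and KRT80 higher, where 3.14% of all tested genes were called (9.97% by the adjusted p alone). The libraries did not overlap for 3 of 6 members, against 38% of all genes. On rechallenge KRT14 alone was called, higher (1 of 6, with 5.14% of all genes called), KRT18 and KRT15 were higher at the adjusted p alone (3 of 6 with KRT14, where 14.3% of all genes passed it), and the libraries did not overlap for 5 of 6, against 55.7%. Between the lines as maintained KRT19, KRT14 and KRT15 were called, all lower in VCaP-CT (3 of 6, with 12.7% of all genes called), and no member's libraries overlapped (6 of 6, against 69%). By the adjusted p alone KRT8 and KRT18 were lower as well (5 of 6, against 30.6%). KRT19 and KRT15 were also called lower in VCaP-CT with both lines at 0.1 nM T (2 of 6, against 12.3%) and with both at 10 nM T (2 of 6, against 10.2%). By the adjusted p alone 4 of 6 passed at 0.1 nM T, against 29.5%, and 2 of 6 at 10 nM T, against 25.2%. The libraries did not overlap for 5 of 6 at 0.1 nM T, against 52.3%, and for 3 of 6 at 10 nM T, against 61.7%. For the difference in response 0 of 6 members were called by edgeR, where 0.564% of all genes were (0.965% by the adjusted p alone), and DESeq2 called 0 as well. KRT8 and KRT18 had an unadjusted p under 0.05 there, 2 of 6 members, as did 3068 of all 19162 genes.

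**Figure D1:**
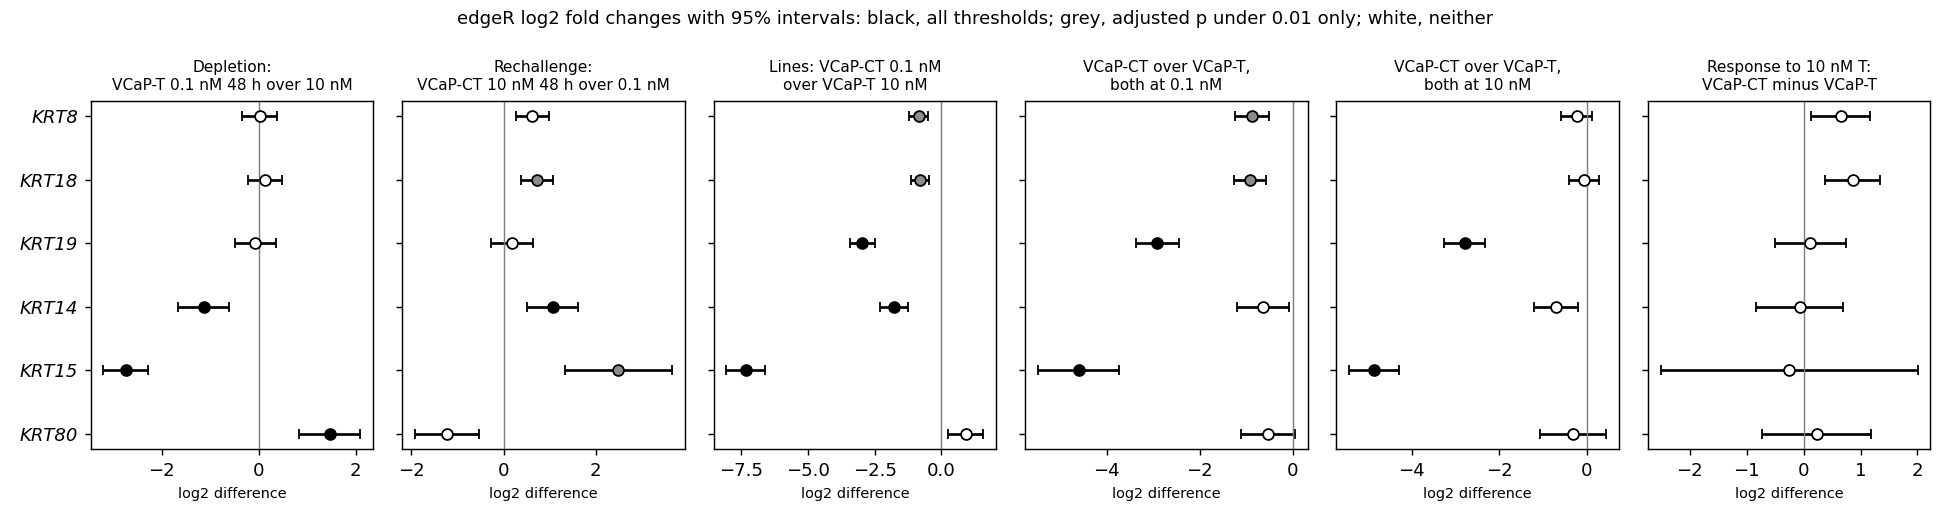
Log2 fold changes of the 6 tested keratins in each comparison, with 95% intervals (1 panel per comparison, each with its own scale, the line at 0 marking no difference). Filled black points met all thresholds: KRT14, KRT15 and KRT80 on depletion, KRT14 on rechallenge, KRT19, KRT14 and KRT15 between the lines, and KRT19 and KRT15 with both lines at 0.1 or at 10 nM T.

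The luminal pair KRT8 and KRT18 was lowest in steady VCaP-CT. KRT18 rose on rechallenge by the adjusted p, as did KRT8 in DESeq2 but not in edgeR. Neither gene passed the test on depletion. KRT8, the type II partner, had 17602, 15494 and 18912 normalized counts in rechallenged VCaP-CT, 11506, 11533 and 10785 in steady VCaP-CT, 16923, 27464 and 17811 in depleted VCaP-T, and 22680.4, 20845 and 17533 in steady VCaP-T. The 3 libraries of steady VCaP-CT lay below all 9 others, whereas the depleted and steady VCaP-T libraries overlapped. KRT18, the type I partner, had 14474, 13491 and 14305 in rechallenged VCaP-CT, 8448, 8546 and 8529 in steady VCaP-CT, 12900.4, 21826 and 13541 in depleted VCaP-T, and 15028, 14939 and 14098 in steady VCaP-T. Its libraries showed the same order, again with steady VCaP-CT below the rest.

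On rechallenge KRT18 was higher by 0.73 on the log2 scale (edgeR adjusted p = 0.00538, SE 0.16) and KRT8 by 0.62 (SE 0.17, adjusted p = 0.0172). Neither reached the fold threshold, and KRT8 missed the p threshold in this fit. KRT8 passed the p threshold in DESeq2 (adjusted p = 0.00323) and in edgeR with no filter on low counts (0.0019). With 1 library left out its edgeR adjusted p ran from 1.6e-06 to 0.0678. Against steady VCaP-T, steady VCaP-CT had a KRT8 value of -0.85 on the log2 scale (edgeR adjusted p = 0.00135, SE 0.17) and a KRT18 value of -0.79 (SE 0.16, adjusted p = 0.00162). With both lines at 0.1 nM T the differences were -0.88 for KRT8 (edgeR adjusted p = 0.00115, SE 0.17) and -0.92 for KRT18 (SE 0.16, adjusted p = 0.000585), with all VCaP-CT libraries lower. With 1 library left out these differences ran from -1.01 to -0.62 for KRT8 and from -1.06 to -0.63 for KRT18. The edgeR adjusted p was then at most 0.00732 and 0.00393. With both lines at 10 nM T the differences were -0.23 for KRT8 (95% interval -0.59 to 0.13) and -0.06 for KRT18 (-0.40 to 0.28), and neither passed the test (adjusted p = 0.302 and 0.796 from edgeR).

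On depletion the log2 fold change was 0.03 for KRT8 (95% interval -0.33 to 0.39) and 0.13 for KRT18 (-0.21 to 0.47), with edgeR adjusted p = 0.923 and 0.58. Without replicate 2 of depleted VCaP-T both turned negative, at -0.23 for KRT8 (edgeR adjusted p = 0.0365) and -0.15 for KRT18 (adjusted p = 0.00983). KRT8 also turned negative, at -0.07, without replicate 3 of steady VCaP-T. The response to 10 over 0.1 nM T was larger in VCaP-CT than in VCaP-T by 0.65 for KRT8 (SE 0.23, adjusted p = 0.196) and by 0.86 for KRT18 (SE 0.22, adjusted p = 0.0684), short of the threshold in edgeR. Without that library the same difference was 0.58 for KRT18 (adjusted p = 1.92e-06) and 0.39 for KRT8 (adjusted p = 0.0247). In bulk RNA, fewer cells that express a gene and less RNA per cell cannot be told apart.

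KRT8 and KRT18 kept a near-constant ratio to each other. Per exon length, KRT8 stood at 0.537 to 0.706 of KRT18 over the 12 libraries, with means of 0.575 in rechallenged VCaP-CT, 0.620 in steady VCaP-CT, 0.606 in depleted VCaP-T and 0.647 in steady VCaP-T. The size of this ratio depends on the exon lengths used, and by raw counts KRT8 was above KRT18 in every library. As a description, the log2 levels of KRT8 and KRT18 had a Pearson correlation of 0.97 over the 12 libraries, the highest of the 15 pairs of tested members. The shared libraries enter it, while fragments that map to several genes were not counted. Both genes have many processed copies in the genome: 51 KRT8 pseudogenes are listed, 42 of them with counts, and they added 18.2 to 25.5% to the KRT8 count of a library. For KRT18 there were 68, 57 with counts, adding 9.57 to 12.0%. Adding these counts to the parent gene, a step chosen after the data were seen, changed no call of a member.

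KRT19, a type I keratin of luminal and intermediate cells, separated the lines at either dose and did not pass the test for testosterone in either line. It had 487, 425 and 564 normalized counts in rechallenged VCaP-CT, 459, 447 and 395 in steady VCaP-CT, 2485, 4584 and 2688 in depleted VCaP-T, and 3790.0, 3385 and 3022 in steady VCaP-T. Every VCaP-CT library lay below every VCaP-T library, while the 2 doses overlapped within each line. The log2 fold change was -2.97 between the lines as maintained (edgeR adjusted p = 4.45e-07, SE 0.22), -2.91 with both at 0.1 nM T (SE 0.22, adjusted p = 6.24e-07) and -2.79 with both at 10 nM T (SE 0.21, adjusted p = 1.07e-06). On depletion it was -0.06 (95% interval -0.50 to 0.37, adjusted p = 0.842 from edgeR), and on rechallenge 0.18 (-0.27 to 0.64, adjusted p = 0.586). Without replicate 2 of depleted VCaP-T the depletion value was -0.40 (edgeR adjusted p = 0.00186), below the fold threshold.

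The make-up of the type I keratins differed with KRT19. Per exon length, KRT19 made up 4.53 ± 0.506% of the type I members in rechallenged VCaP-CT, 6.501 ± 0.498% in steady VCaP-CT, 21.5 ± 0.734% in depleted VCaP-T and 23.7 ± 1.48% in steady VCaP-T (mean and SD, n = 3 libraries each). KRT18 made up nearly all of the rest, with 94.4%, 92.7%, 77.8% and 74.4% in the same order. The sum of type I over that of type II members was 1.85 in rechallenged VCaP-CT, 1.73 in steady VCaP-CT, 2.11 in depleted VCaP-T and 2.09 in steady VCaP-T. The size of this ratio also depends on the exon lengths used. The 5 KRT19 pseudogenes added 0.705 to 1.96% to its counts.

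**Figure D2:**
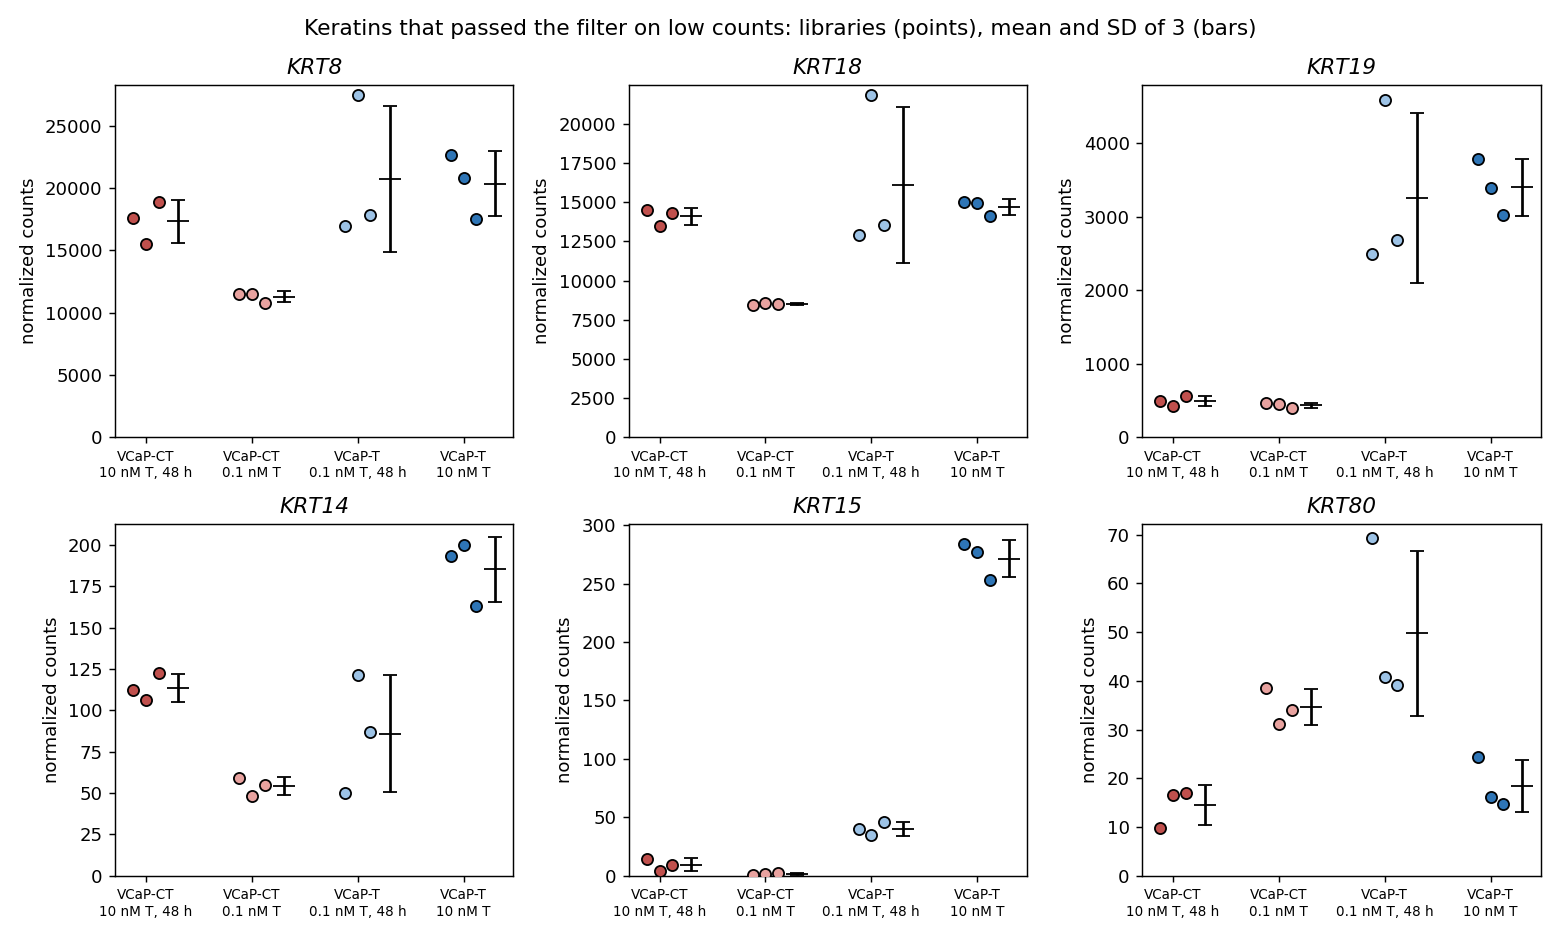
Normalized counts of the 6 keratins that passed the filter in each library (points), with the mean and SD of 3 libraries beside them, in rechallenged VCaP-CT, steady VCaP-CT, depleted VCaP-T and steady VCaP-T. The single high point of depleted VCaP-T for KRT8, KRT18 and KRT19 is replicate 2, and KRT15 is near 0 in VCaP-CT but 253 to 283 in steady VCaP-T.

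The basal keratins KRT14 and KRT15 were both highest in steady VCaP-T and both lower in depleted VCaP-T. KRT14, the type I keratin that marks basal cells together with KRT5, had 112, 106 and 123 normalized counts in rechallenged VCaP-CT, 59.0, 48.3 and 55.1 in steady VCaP-CT, 50.1, 121 and 86.6 in depleted VCaP-T, and 193, 200 and 163 in steady VCaP-T. The groups did not overlap on depletion or on rechallenge, but the depleted libraries were spread from 50.1 to 121. KRT14 fell by 1.13 on the log2 scale on depletion (edgeR adjusted p = 0.00616, SE 0.24) and rose by 1.07 on rechallenge (SE 0.25, adjusted p = 0.00901). Steady VCaP-CT lay below steady VCaP-T, at -1.77 on the log2 scale (edgeR adjusted p = 0.000108, SE 0.25).

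At a like dose the KRT14 difference between the lines was smaller and did not pass the thresholds: -0.64 with both at 0.1 nM T (edgeR adjusted p = 0.0636, SE 0.26) and -0.70 with both at 10 nM T (SE 0.23, adjusted p = 0.0322). Its response to testosterone differed between the lines by -0.07 (95% interval -0.83 to 0.70). Both KRT14 calls on testosterone were close to the threshold. The depletion call was lost when any 1 of the 12 libraries other than replicate 2 of depleted VCaP-T was left out, with adjusted p up to 0.0302 in edgeR. The value was -0.84 without replicate 1 of depleted VCaP-T and -1.47 without its replicate 2 (edgeR adjusted p = 2.78e-06). The rechallenge call was lost without any 1 library other than replicates 1 and 2 of depleted VCaP-T, with adjusted p up to 0.042.

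KRT15, a type I keratin of basal cells, had the widest range of the 6 in relative terms. It had 14.8, 4.16 and 9.60 normalized counts in rechallenged VCaP-CT, 0.856, 1.89 and 2.00 in steady VCaP-CT, 40.1, 34.6 and 46.4 in depleted VCaP-T, and 283, 277 and 253 in steady VCaP-T. The 4 groups did not overlap at all. KRT15 fell by 2.74 on the log2 scale on depletion (edgeR adjusted p = 5.24e-06, SE 0.21), to 15.0% of the level in steady VCaP-T (95% exact interval 12.3 to 18.2%, from 121 against 835 counts). This call held without any 1 library and in each alternative run, at -2.66 without replicate 2 of depleted VCaP-T.

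In VCaP-CT KRT15 was nearly gone. The 3 libraries of steady VCaP-CT held 5 counts in all, against 835 in steady VCaP-T, a ratio of 0.573% (exact interval 0.186 to 1.34%), and the edgeR log2 fold change was -7.34 (SE 0.33, adjusted p = 7.11e-09). Against the 121 counts of depleted VCaP-T the ratio was 3.82% (1.22 to 9.16%), and the 25 counts of rechallenged VCaP-CT were 3.41% of steady VCaP-T (2.19 to 5.07%), both called (edgeR adjusted p = 2.66e-06 and 5.15e-08). On rechallenge the ratio was 5.94-fold (exact interval 2.23 to 19.9, 25 against 5 counts), and the test gave an adjusted p = 0.00493 in edgeR, but the medians differed by 7.71 normalized counts, under the 13 needed. These intervals cover counting error only. For the difference in response KRT15 did not pass the test, with a value of -0.25 and a wide interval of -2.51 to 2.00.

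The ratio of KRT15 to KRT14 differed between groups. Per exon length, KRT15 stood at 0.0268 ± 0.0150 of KRT14 in rechallenged VCaP-CT, 0.00969 ± 0.00436 in steady VCaP-CT, 0.174 ± 0.0830 in depleted VCaP-T and 0.474 ± 0.0275 in steady VCaP-T (SD, n = 3 libraries each). The size of this ratio depends on the exon lengths used, 7069 bases for KRT15 and 2281 for KRT14. By raw counts KRT15 was above KRT14 in steady VCaP-T, with 267, 291 and 277 against 182, 210 and 178. KRT15 and its neighbour KRT19, 1087 bases apart, differed in their behaviour: KRT15 was called on depletion and KRT19 was not, while both were called between the lines at each dose.

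KRT80 had the opposite order of doses to KRT14 in each line. It had 9.84, 16.6 and 17.1 normalized counts in rechallenged VCaP-CT, 38.5, 31.2 and 34.1 in steady VCaP-CT, 69.3, 40.7 and 39.2 in depleted VCaP-T, and 24.4, 16.2 and 14.6 in steady VCaP-T. The libraries at 0.1 nM T lay above those at 10 nM T in both lines. KRT80 rose by 1.46 on the log2 scale on depletion (edgeR adjusted p = 0.00435, SE 0.29), and the rechallenge value was -1.23 (SE 0.32), whose adjusted p of 0.0137 missed the threshold in edgeR and passed it in DESeq2 (0.00777). Between the lines as maintained the difference was 0.92 (edgeR adjusted p = 0.026), at 0.1 nM T -0.54 (adjusted p = 0.124) and at 10 nM T -0.31 (adjusted p = 0.518). The depletion call was lost without replicate 2 of steady VCaP-T (adjusted p = 0.0261), without replicate 3 of that group (0.0262) and without replicate 1 of depleted VCaP-T (0.0138, log2 fold change 1.13). Without replicate 2 of depleted VCaP-T it was 1.59 (edgeR adjusted p = 0.000198).

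Summed per exon length, the luminal keratins KRT8, KRT18 and KRT19 reached 202 ± 12.1 in rechallenged VCaP-CT, 127 ± 2.03 in steady VCaP-CT, 267 ± 82.1 in depleted VCaP-T and 255 ± 19.7 in steady VCaP-T (SD, n = 3 libraries each). The basal keratins KRT5, KRT14 and KRT15 together reached 1.46 ± 0.112, 0.684 ± 0.0677, 1.23 ± 0.428 and 3.39 ± 0.304 in the same order. Basal keratins made up 0.717 ± 0.0204% of the luminal and basal sum in rechallenged VCaP-CT, 0.537 ± 0.0570% in steady VCaP-CT, 0.459 ± 0.0949% in depleted VCaP-T and 1.31 ± 0.0483% in steady VCaP-T. All 12 libraries were therefore luminal by their keratins, with a basal share of at most 1.37%. Sums and shares depend on the exon lengths used, such as 7069 bases for KRT15 against 2281 for KRT14. The share was highest in the 3 libraries of steady VCaP-T, at or above 1.28%, and those of the other groups were at most 0.739%.

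Of the 45 other keratins in the files, 5 passed the filter and 4 of these, KRT2, KRT36, KRT72 and KRT73, were called in at least 1 comparison. Over all tested genes the share called in a single comparison ran from 0.564% to 12.7%, with 3.14% on depletion. The share called in at least 1 comparison was not computed. KRT2, a type II keratin known from the upper layers of the epidermis, averaged 81.9 ± 19.2 normalized counts in rechallenged VCaP-CT, 143 ± 10.3 in steady VCaP-CT, 315 ± 55.8 in depleted VCaP-T and 51.5 ± 0.982 in steady VCaP-T. It rose by 2.61 on the log2 scale on depletion (edgeR adjusted p = 3.09e-06, SE 0.19), and steady VCaP-CT was above steady VCaP-T by 1.47 (SE 0.19, adjusted p = 5.4e-05). All 3 depleted libraries lay above all others.

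KRT36, a type I hair keratin, averaged 7.98 ± 3.90 in rechallenged VCaP-CT, 15.5 ± 6.80 in steady VCaP-CT, 178 ± 24.9 in depleted VCaP-T and 56.4 ± 10.8 in steady VCaP-T. It rose by 1.66 on depletion (edgeR adjusted p = 0.000876, SE 0.25) and was lower in VCaP-CT at either dose, by -3.53 with both lines at 0.1 nM T. The neighbouring type II genes KRT72 and KRT73, known from the inner root sheath of hair, were low, with means of 18.2 and 23.9 in depleted VCaP-T and 3.22 and 5.09 in steady VCaP-T, and both rose on depletion, by 2.47 and 2.17. With a library left out the KRT72 value ran from 2.18 to 3.16 (edgeR adjusted p up to 0.0214) and that of KRT73 from 1.95 to 2.53 (up to 0.0119). The KRT72 call was lost without replicate 1 or 3 of steady VCaP-T or replicate 1 of depleted VCaP-T, and the KRT73 call without replicate 1 or 2 of steady VCaP-T. Their exons overlap those of the antisense gene KRT73-AS1, by 3.34% and 37.8% of their length, and reads of the overlap cannot be assigned. KRT10, the fifth, averaged 394 to 588 and was called nowhere. The remaining 40 had at most 40 counts over the 12 libraries together, the highest being KRT86, and 15 of them had 0.

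**Figure D3:**
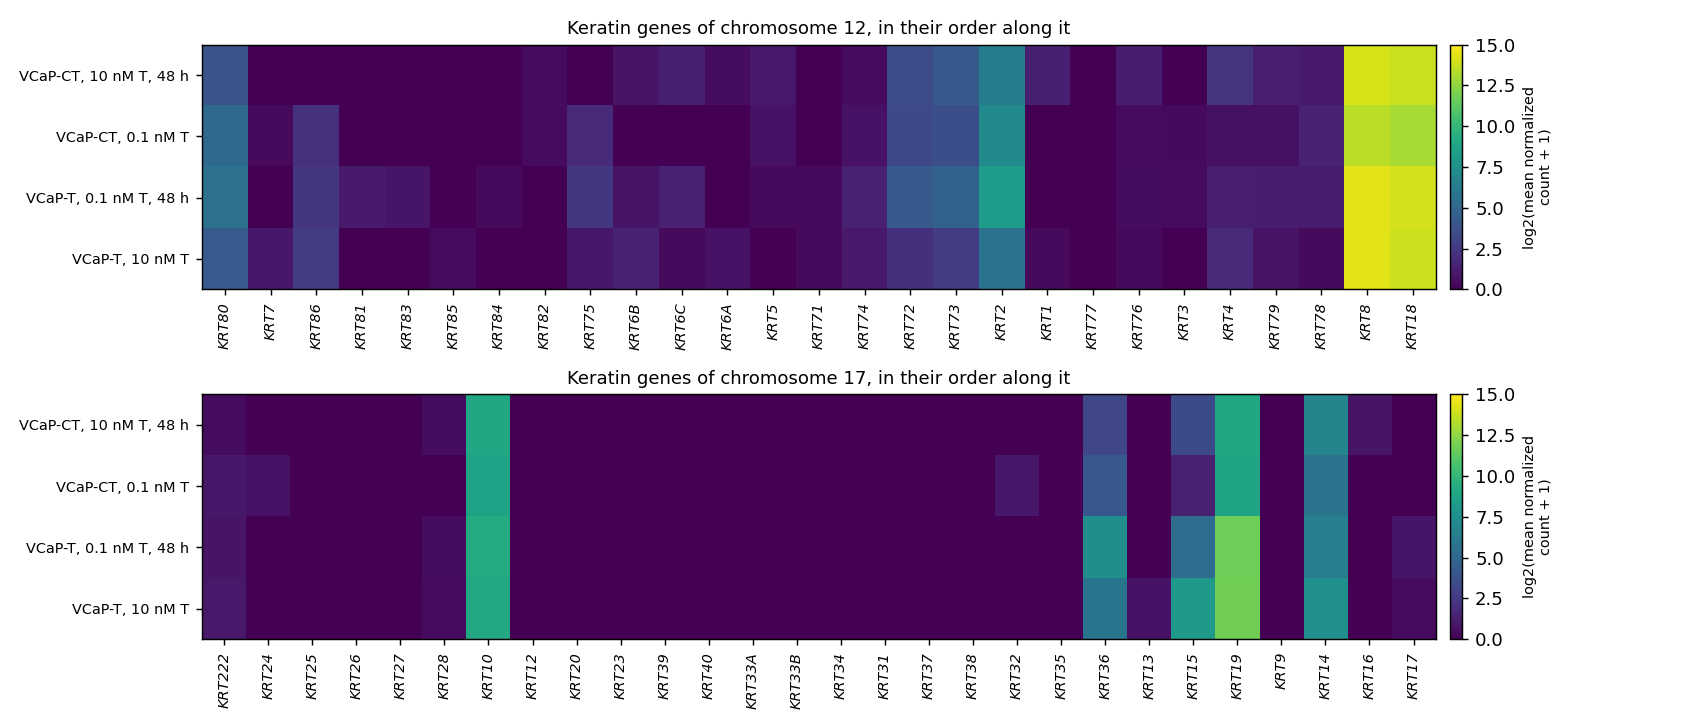
Mean normalized count of each group (color, as log2 of the mean + 1) for every keratin gene of the clusters on chromosomes 12 and 17, in their order along the chromosome. KRT8 and KRT18, side by side at the end of the chromosome 12 cluster, are bright in all 4 groups, while KRT15, beside KRT19 on chromosome 17, is bright in steady VCaP-T and dark in steady VCaP-CT.

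Luminal and basal identity was followed further on genes other than keratins. Of 19 luminal genes 18 were tested. Over all tested genes 3.14% were called on depletion and 5.14% on rechallenge. On depletion TMPRSS2, a membrane protease of prostate epithelium, was the single gene called, lower, and the median of the list was -0.16, beside 0.04 over all genes. On rechallenge TMPRSS2, KLK3 (prostate-specific antigen) and AGR2 (a secretory protein of glands) were called higher and 1 gene lower, with a list median of 0.39, beside -0.02 over all genes.

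Between the lines as maintained 2 luminal genes were called higher in VCaP-CT, among them GATA2 (a zinc finger transcription factor), and 4 were called lower, KLK3, TMPRSS2, MSMB (a secreted protein of semen) and AGR2. Over all genes 12.7% were called in that comparison. KLK3 averaged 1669 ± 22.9 in steady VCaP-CT, against 78770 ± 1085 in steady VCaP-T, or on the log2 scale -5.56 (edgeR adjusted p = 3.91e-11). GATA2 averaged 14040 ± 408 in steady VCaP-CT, against 4182 ± 457 in steady VCaP-T. The secretory genes KLK3 and MSMB were thus lower in VCaP-CT together with KRT19, and remained called lower with both lines at 0.1 nM and with both at 10 nM T. They were the only luminal genes called lower at a like dose, where 3 others were called higher at 0.1 nM T and 2 at 10 nM T. Over all genes 12.3% and 10.2% were called. The luminal list medians there were 0.11 and 0.19, beside -0.02 and 0.00 over all genes.

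Of 25 basal genes 20 were tested, and TP63, NGFR, S100A2, DSG3 and PDPN did not pass the filter, with at most 11 counts in any library. The tested ones moved in both directions. Over all genes 3.14% were called on depletion and 5.14% on rechallenge. On depletion CAV1 and CAV2 (caveolins), LAMB3 (a chain of laminin-332) and COL17A1 (a hemidesmosome collagen) were called higher, and 2 genes lower, among them SNAI2 (a factor known from basal and migrating cells), with a list median of -0.01. On rechallenge 3 genes were called higher, among them SNAI2 and SFN (14-3-3 sigma), and COL17A1, ITGB4 (a hemidesmosome integrin) and CAV1 lower, with a list median of 0.01. Several of these calls depended on single libraries. On depletion COL17A1 was lost without any 1 library of steady VCaP-T or replicate 1 or 3 of depleted VCaP-T (edgeR adjusted p up to 0.0219), CAV2 without replicate 3 of steady VCaP-T or replicate 1 of depleted VCaP-T, and LAMB3 without replicate 3 of either group, as their folds dropped to 0.97 and 0.95. On rechallenge SFN was lost without replicate 1 or 3 of either VCaP-CT group (edgeR adjusted p up to 0.016).

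SNAI2 was called in the same directions as KRT14 on depletion, on rechallenge and between the lines as maintained. SNAI2 averaged 54.7 ± 8.24 in rechallenged VCaP-CT, 2.12 ± 1.93 in steady VCaP-CT, 85.4 ± 2.09 in depleted VCaP-T and 200.2 ± 10.1 in steady VCaP-T. COL17A1 ran the other way, with means of 14.9, 50.4, 63.9 and 28.2 in the same order. Between the lines as maintained 2 basal genes were called higher in VCaP-CT, CD44 (a hyaluronan receptor) and BCL2 (an inhibitor of apoptosis), and 6 were called lower, among them SNAI2, ITGB4 and SFN, with a list median of -0.08. Over all genes 12.7% were called in that comparison. At a like dose the medians were further from 0. With both lines at 0.1 nM T 2 basal genes were called higher and 8 lower in VCaP-CT, with a median of -0.79, beside -0.02 over all genes. With both at 10 nM T 4 were called higher and 4 lower, with a median of -0.65, beside 0.00. Over all genes 12.3% were called at 0.1 nM T and 10.2% at 10 nM T.

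**Figure D4:**
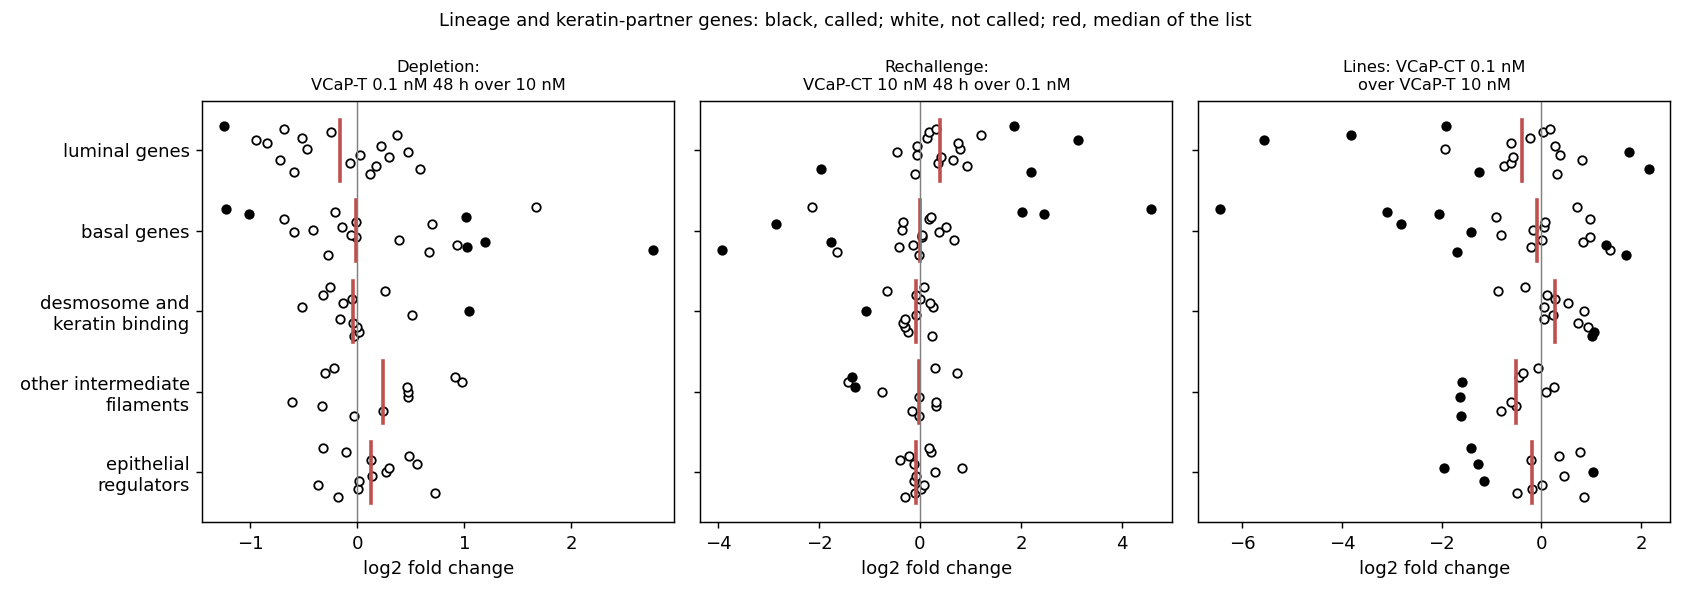
Log2 fold changes of the tested genes of 5 lists (rows) on depletion, on rechallenge and between the lines as maintained, with called genes in black and the median of a list as a red line. Luminal and basal genes spread to both sides of 0 in each panel, with medians of -0.16 and -0.01 on depletion and 0.39 and 0.01 on rechallenge.

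Genes whose proteins anchor or bind keratin filaments were called at 1 of 13 on depletion, 1 of 13 on rechallenge and 2 of 13 between the lines as maintained, where 3.14%, 5.14% and 12.7% of all genes were. Of these 13 desmosome and keratin-binding genes, all tested, KLHL24, an adaptor that directs keratin 14 to degradation, was called higher on depletion and lower on rechallenge, the opposite of KRT14. It averaged 727 ± 110 in rechallenged VCaP-CT, against 1519 ± 63.5 in steady VCaP-CT, and 1722 ± 382 in depleted VCaP-T, against 835 ± 32.0 in steady VCaP-T, with log2 fold changes of -1.06 and 1.04 (adjusted p = 0.000304 and 0.000544 from edgeR). Only RNA was measured, not keratin protein, and a part of KLHL24 in the KRT14 differences was not tested. DSC2 and DSG2, desmosomal cadherins, were called higher in steady VCaP-CT than in steady VCaP-T, by 1.01 and 1.06. The folds fell short of the threshold without 1 library for KLHL24 on depletion (0.90 without replicate 1 of depleted VCaP-T) and on rechallenge (-0.96 without replicate 3 of rechallenged VCaP-CT), and for DSC2 (0.98 without replicate 1 of steady VCaP-T and 1.00, just under 1, without replicate 3 of steady VCaP-CT). Of 14 other intermediate filament genes 11 were tested. VIM, the filament of mesenchymal cells, had at most 4 counts in any library, and INA, NEFH and NES, of neural cells, were called lower in steady VCaP-CT than in steady VCaP-T.

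Of 13 regulators of epithelial genes, all tested, KLF4, TFAP2C, KLF5 and GRHL1 were called lower and GRHL3 higher in steady VCaP-CT than in steady VCaP-T. Over all genes 12.7% were called in that comparison. The GRHL3 call was lost without any 1 library of steady VCaP-T or steady VCaP-CT or without replicate 1 or 2 of rechallenged VCaP-CT (0.89 to 1.15, edgeR adjusted p up to 0.0324). KLF5 averaged 187 ± 13.9 in steady VCaP-CT, against 454 ± 45.9 in steady VCaP-T, and KLF4 551 ± 16.9 in steady VCaP-CT, against 2134 ± 88.4 in steady VCaP-T. Markers of neuroendocrine cells also differed between the lines as maintained, where 12.7% of all genes were called. Of 11 such genes 8 were tested, and 5 were called lower and 1 higher in steady VCaP-CT than in steady VCaP-T, with the summed level of the list at 2705 to 3056 in rechallenged VCaP-CT, 2666 to 2779 in steady VCaP-CT, 10500.1 to 11767 in depleted VCaP-T and 8767 to 8963 in steady VCaP-T. CHGA had at most 1 count in any library. Their part in the keratin differences was not tested.

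Lists of intestinal, club and stromal cells were set beside the keratins. The summed level of 8 intestinal genes was 268 to 321 in rechallenged VCaP-CT, 454 to 521 in steady VCaP-CT, 2162 to 2526 in depleted VCaP-T and 1237 to 1370 in steady VCaP-T, with CDX1 at 0 in all libraries. That of 9 club and intermediate cell genes was 213 to 249.6 in rechallenged VCaP-CT, 477 to 535 in steady VCaP-CT, 1542 to 2330.1 in depleted VCaP-T and 841 to 1035 in steady VCaP-T. Of these 3 were tested, and LTF (lactotransferrin) and PIGR (the polymeric immunoglobulin receptor) were called higher on depletion, by 3.04 and 1.38, with 3.14% of all genes called. KRT14 and KRT15 were called lower there, and a part of LTF and PIGR in the keratin differences was not tested. The 8 fibroblast and smooth muscle genes summed to 148 to 164 in rechallenged VCaP-CT, 1001 to 1112 in steady VCaP-CT, 704 to 813 in depleted VCaP-T and 255 to 321 in steady VCaP-T. LUM averaged 886 of that sum in steady VCaP-CT and 20.5 in steady VCaP-T, and COL1A2 had at most 2 counts. The 5 endothelial genes summed to 473 to 503 in rechallenged VCaP-CT, 299 to 318 in steady VCaP-CT, 517 to 559 in depleted VCaP-T and 517 to 564 in steady VCaP-T. KDR was at 0 in all libraries, VWF averaged 232 to 507 over the groups and PECAM1 37.2 to 123, and PECAM1 was called higher on depletion, by 1.72. Of 6 blood cell genes HBB was at 0 in all libraries, while LYZ, the only abundant one, averaged 120 in steady VCaP-CT and 2512 in steady VCaP-T.

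For each tested keratin the 3 genes with the most similar profile were taken by Pearson correlation of log2(normalized count + 1) over the 12 libraries, as a description. For KRT19 they were H2BC9, OAT and CST1 (r = 0.995, 0.993 and 0.993), and for KRT15 SLC22A3, SLC16A1 and AKT1S1 (r = 0.983, 0.981 and 0.981). OAT averaged 154 in steady VCaP-CT and 1092 in steady VCaP-T, and SLC22A3, an organic cation transporter, 623 in steady VCaP-CT and 2622 in steady VCaP-T. For KRT18 they were ADRB1, LGMN and RHOA (r = 0.987, 0.986 and 0.986), and for KRT8 ATG101, MEX3D and GIPC1 (r = 0.981, 0.979 and 0.977). KRT14 was most like ELAVL1, WDR5 and BRI3BP (r = 0.974, 0.962 and 0.961), and KRT80 most like UNC13D, CD101 and RET (r = 0.975, 0.953 and 0.945). The 4 groups and the depth of the same libraries are shared by all of these profiles.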

How the data were processed

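Poly(A) RNA of 12 samples was sequenced by the authors as 75 bp paired ends of stranded TruSeq libraries on a HiSeq 3000. Per the labels and file headers, the deposited counts are whole fragments per gene that the authors aligned to GRCh38 with STAR 2.5.4b and counted over exons of Gencode release 28 with featureCounts 1.6.2, without strand and without fragments that map to several genes or places, which lowers genes with close copies such as KRT8 and KRT18. A deposited table of normalized values made by the authors with DESeq2 was not used here.

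Counts were fitted in R 4.3.3 with edgeR 4.0.16 (quasi-likelihood test, TMM, default filter on low counts, 1 model of 4 groups with no block, 19162 genes after the filter), with Benjamini-Hochberg adjustment over all of them. Levels per length are FPKM on TMM library sizes. Normalized counts were scaled to the mean effective library of 35.2 M. Levels per length used the union of exons, which counts all isoforms. The members and lists were chosen with earlier results of these data known. The genes named are all members, other keratins called in any comparison, up to 4 called genes per list and direction with the smallest p, and the 3 genes most like each tested member. Exceptions, named for their counts or as markers chosen after their values were seen, are KRT10, KRT86, HOXB13, EPCAM, GATA3, CD38, ITGA6, DSC3, EGFR, VWF and the markers given as near 0. Alternatives were DESeq2 1.42.0, its size factors in edgeR, no filter, only the 6 libraries of a comparison, a replicate block, each library left out and, added later, pseudogene counts joined to the parent. The steps were tested on simulated data. The exact intervals of KRT15 ratios and the floors cover counting error only, and the intervals of log2 fold changes also cover variation among libraries. Some genes that the rule would name are counted in their lists but not reported here by name.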

Additional observations from a re-analysis of the deposited data

Results flagged for a closer look

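The response to 10 over 0.1 nM T differed between VCaP-CT and VCaP-T by edgeR's test of the difference itself for KRT2 and for genes of the lists, of which 6 are reported here, each given as the log2 response of VCaP-CT minus that of VCaP-T. Over all genes 0.564% were called for this difference. For KRT2 the difference was 1.81 (SE 0.26, adjusted p = 0.00293), since the gene was 0.79 lower on rechallenge of VCaP-CT and 2.61 higher on depletion of VCaP-T. That call was lost under the replicate block (adjusted p = 0.0132) and without any 1 library of steady VCaP-T, of steady VCaP-CT, or replicates 2 and 3 of rechallenged VCaP-CT (adjusted p up to 0.0149). Among luminal genes the difference was 2.19 for KLK3 and 1.11 for CD24. The CD24 call was lost without replicate 1 or 2 of steady VCaP-T, replicate 2 of depleted VCaP-T or replicate 1 of steady VCaP-CT (0.96 to 1.19, adjusted p up to 0.0114). Among basal genes it was 3.35 for SNAI2 (lost without replicate 1 of steady VCaP-CT, adjusted p = 0.0124, and under the replicate block, 0.0106), and among epithelial regulators 1.13 for KLF4. Of the markers of other cell types it was 2.12 for LYZ (blood cells) and 2.13 for PECAM1 (endothelium).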

How the results depend on the processing

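Of the calls on members, those of KRT19 and KRT15 held in each alternative that gave a value. The KRT14 call between the lines as maintained held as well (edgeR adjusted p up to 0.00107 with 1 library left out). The scaling by DESeq2 size factors and the joined pseudogene counts changed no call of a member, and moved the counts of genes called by little (depletion 590 instead of 602 under the size factors). The count of members called on rechallenge was 2 by DESeq2, with no filter and with the 6 libraries alone, as KRT80 joined KRT14, and 0 under the replicate block. On depletion it was 1 with the 6 libraries alone, where KRT14 (adjusted p = 0.0773 from edgeR) and KRT80 (0.0535) were lost, and 219 genes were called. KRT15 did not pass the filter in the 6 VCaP-CT libraries alone, which gave no value. Genes called for the difference in response numbered 108, but 210 by DESeq2, 172 with no filter and 64 under the replicate block. Correlations of deviations between libraries of the same number ran from -0.157 to 0.0511. They gave no sign of pairing by number, but cannot show that samples of the same number were handled separately. Under the block KRT14 was no longer called on depletion (adjusted p = 0.0132 from edgeR) or rechallenge (0.018).

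Leaving out 1 library gave 1 to 3 members called on depletion, 0 to 2 on rechallenge and 2 to 4 with both lines at 0.1 nM T, and 55 to 234 genes called for the difference in response. Signs turned in 11 cases, each of a value not called. On depletion KRT8 was -0.07 without replicate 3 of steady VCaP-T and -0.23 without replicate 2 of depleted VCaP-T, KRT18 was -0.15 without that library too, and KRT19 was 0.02 without replicate 1 of steady VCaP-T and 0.10 and 0.06 without replicates 1 and 3 of depleted VCaP-T. For the difference in response KRT14 was 0.23 and KRT80 -0.10 without replicate 1 of depleted VCaP-T, KRT19 was -0.21 without replicate 2 of it, KRT14 was 0.01 without replicate 1 of steady VCaP-CT, and KRT15 was 0.12 without replicate 2 of rechallenged VCaP-CT. With 1 library left out the depletion values ran from -0.23 to 0.16 for KRT8, -0.15 to 0.27 for KRT18 and -0.40 to 0.10 for KRT19, and the differences in response from -0.40 to 0.23 for KRT14, -0.69 to 0.12 for KRT15, -0.21 to 0.28 for KRT19 and -0.10 to 0.47 for KRT80. The cause was not tested. With 1 to 2 counts in a library, KRT15 in steady VCaP-CT was limited by depth.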
